A study of Mus musculus with 6 samples.

Results

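Cluster 10 of the *NG2-tdT+* data held 110 of 10455 cells. Its members are the cells that carry this cluster number in the deposited annotation of the 3 NG2 libraries integrated together, and all 110 were kept. Of these cells, 44 came from the naïve library (4306 cells), 23 from the physical injury library (2563 cells) and 43 from the ischemic injury library (3586 cells). All mice were *NG2-Cre-ERT2/Ai14-flx*, 3 to 4 months old, and all received tamoxifen, the naïve mice included. The physical injury group had a cortical injection of saline and the ischemic injury group one of endothelin-1 and L-NAME (ET-1/L-NAME), both 3 days before the cells were collected. The Cre is driven by regulatory sequence of Cspg4, the gene for NG2, which is also active in oligodendrocyte precursor cells (OPC), so the sorted tdT+/DAPI- cells of the cerebral cortex are not pericytes alone. Animals were pooled into 1 library per condition. There is therefore no replicate of a condition, and no test between conditions or between clusters was made. All intervals are 95% intervals and cover counting error only.

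Pericytes are mural cells that sit in the basement membrane of brain capillaries and take part in barrier function and in the control of blood flow. In the mouse brain they are known for Vtn (vitronectin), Kcnj8 and Abcc9 (the subunits of an ATP-sensitive potassium channel), Pdgfrb (a receptor of platelet-derived growth factor) and Atp13a5 (a P-type transporter). Their membrane potential sets calcium entry through voltage-gated channels, of which the L-type channel with the Cacna1c pore subunit is a main route.

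The study counted cluster 10 among its pericyte clusters, and 5 genes are given as its markers. Grin2a encodes a subunit of the NMDA-type glutamate receptor, Rgs6 a regulator of G protein signalling, Sntb1 a syntrophin of the dystrophin complex, Cacna1c the pore of the L-type calcium channel, and Galnt17 a member of the GalNAc transferase family. Since expression was what the clustering used, the levels of these genes in cluster 10 describe it and are no test of it. Clusters 1 and 2, with 1713 and 1557 cells, are the 2 clusters it was compared with. For each cell of cluster 10, the 3 cells of cluster 1 and the 3 cells of cluster 2 nearest to it in total UMIs were taken from the same library, 330 cells of each cluster.

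The cells of cluster 10 were shallow. Their median was 2253 UMIs (unique molecular identifiers, 1 per captured transcript; range 495 to 10404) and 1190 genes, and all 110 together held 271493 UMIs. By library the median was 1929 UMIs in the naïve, 2554 in the physical injury and 2061 in the ischemic injury library, which is 47.7%, 40.4% and 26.3% of the median over all cells of that library. The library totals were 20264659, 24674494 and 54276245 UMIs. The matched cells of cluster 1 had a median of 2224 UMIs, close to cluster 10 in each library (1932, 2616 and 2185). The match with cluster 2 was not complete, since that cluster held few shallow cells: its matched cells had a median of 3244 UMIs, and none of those from the injured libraries was under 1270 UMIs. No cell barcode of cluster 10 occurred in another of the 3 libraries, although these shared 2 to 5 barcodes in pairs.

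What set the cells of cluster 10 apart at matched depth was the make-up of their transcripts. The deposited percent.ribo, the share of a cell's UMIs from genes whose names begin with Rps or Rpl, had a median of 0.679% over the 110 cells (range 0 to 4.77). In the matched cells the median was 5.71% in cluster 1 and 3.29% in cluster 2. By library the median in cluster 10 was 0.409% (naïve), 0.416% (physical injury) and 1.12% (ischemic injury), against 5.6%, 5.28% and 6.15% in cluster 1 and 3.09%, 3.11% and 3.74% in cluster 2. All 110 cells lay under the median of the matched cells of cluster 1, and 108 under that of cluster 2. The ischemic injury library was the highest of the 3 in cluster 10, and its median was still far below both other clusters.

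The deposited percent.mito, the share from mitochondrial transcripts, was a little higher in cluster 10, with ranges that overlapped almost wholly. Its median was 3.90% (range 0.384 to 11.5), against 3.11% in the matched cells of cluster 1 and 2.94% in those of cluster 2. By library it was 3.88% in the naïve, 4.4% in the physical injury and 3.82% in the ischemic injury library, each above the same library's matched cells of cluster 1 (2.92%, 3.72% and 3.09%) and cluster 2 (2.85%, 3.33% and 2.88%). Of the 110 cells, 71 lay over the median of cluster 1 and 75 over that of cluster 2. Across the 110 cells percent.mito was lower where UMIs were higher (Spearman's rho -0.41, a description over cells that share 3 libraries).

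The percent.ribo of cluster 10 was not made of ribosomal protein transcripts alone. Of the 101 gene names that begin with Rps or Rpl, 10 belong to the Rps6k kinase genes, which code for no part of the ribosome. They gave 6.91% of these UMIs in cluster 10 (7.17%, 12.1% and 5.57% in the naïve, physical injury and ischemic injury libraries), against 0.364% in the matched cells of cluster 1 and 0.709% in those of cluster 2. With the 91 ribosomal protein genes alone, the summed share was 0.764% of UMIs in cluster 10, 5.93% in cluster 1 and 3.53% in cluster 2.

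A larger share of the transcripts of cluster 10 than of the matched cells came from genes that span a long stretch of the genome. Genes over 100 kb from start to end in the GENCODE M21 annotation gave 37.9% (37.7 to 38.1) of its UMIs, against 13.3% in the matched cells of cluster 1 and 19.7% in those of cluster 2. The share was 40.5% in the naïve, 40.2% in the physical injury and 33.6% in the ischemic injury library. Per cell its median was 37.7% (range 18.8 to 51.8), and none of the 330 matched cells of either cluster reached that value. Of the 110 cells, 110 lay over the median of cluster 1 (12.4%) and 109 over that of cluster 2 (19.0%). Within cluster 10, cells with a larger share from long genes had a lower percent.ribo (rho -0.64 over 110 cells), while the share was unrelated to the total UMIs of the cell (rho 0.00). Both are shares of the same total, so they are not independent of each other. A high share was not particular to cluster 10: in cluster 6, where the OPC markers were highest, the median was 38.6%, and in its naïve cells it was 45.3% at a percent.ribo of 0.998%. Whether reads in introns were counted is not given in the sources used here, so the part of a gene that these UMIs came from is not known. Nor is it given which version of the aligner made which library. The ischemic injury library was below the naïve one in cluster 10 and not in the matched cells of the same libraries, where the naïve, physical injury and ischemic injury shares were 12.4%, 15.0% and 13.1% in cluster 1 and 19.0%, 21.3% and 19.5% in cluster 2.

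**Figure D1:**
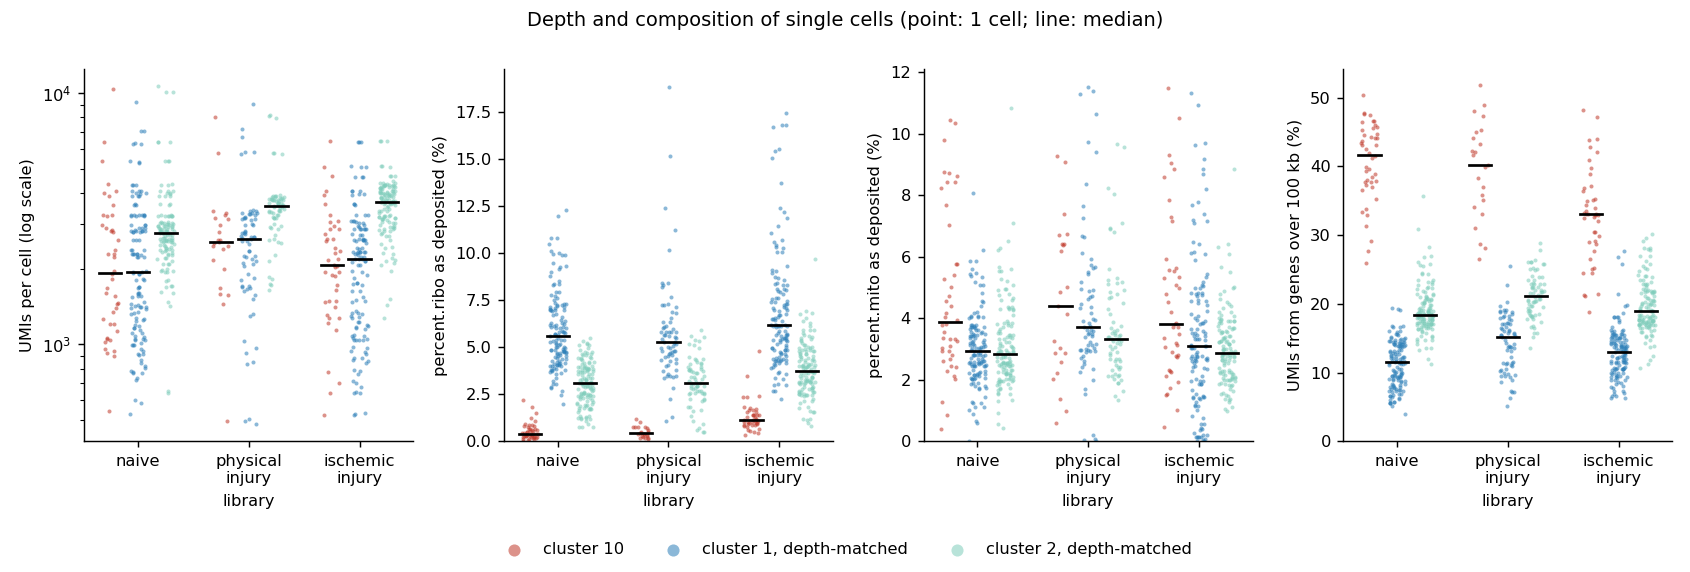
Total UMIs (log axis), percent.ribo, percent.mito and the percent of UMIs from genes over 100 kb, for each cell of cluster 10 and of the depth-matched cells of clusters 1 and 2, by library. Each point is a cell and each line a median. Cluster 10 sat at the bottom of percent.ribo (median 0.679%) and at the top of the share from long genes (median 37.7%), while percent.mito overlapped.

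The 5 given markers were each higher in cluster 10 than in the matched cells, in every library. Levels are given as CPM, counts per 1000000 UMIs of the group, and log2 ratios as log2 of (CPM + 1) in cluster 10 over the same in the matched cells of clusters 1 and 2 together. The scale does not account for gene length, so levels are compared between groups of cells and not between genes. Cacna1c (chr6:118587240-119196418, minus strand, GRCm38, a span of 609 kb) was at 2414, 2452 and 2125 CPM in the naïve, physical injury and ischemic injury libraries of cluster 10, and at 326, 672 and 498 CPM in the matched cells. Its level over the 3 libraries was 2317 CPM (2139 to 2505), against 265 CPM for cluster 1 and 619 CPM for cluster 2, a log2 ratio of 2.29 (2.14 to 2.44). The 3 libraries of cluster 10 lay close together, and the lowest was above the highest of the matched cells. A UMI of Cacna1c was found in 100 of the 110 cells.

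Rgs6 (chr12:82588292-83162056, plus strand, 574 kb) was at 1538, 1878 and 812 CPM in the same order, against 267, 358 and 288 CPM in the matched cells, a log2 ratio of 2.19 (2.00 to 2.38). The ischemic injury library was the lowest of the 3 and still above all matched cells. Sntb1 (chr15:55636388-55906949, minus strand, 271 kb) was at 1323, 1164 and 1313 CPM, against 307, 325 and 312 CPM, a log2 ratio of 2.03 (1.84 to 2.23). Galnt17 (chr5:130872082-131308497, minus strand, 436 kb) was at 783, 1273 and 1033 CPM, against 222, 390 and 280 CPM, a log2 ratio of 1.80 (1.59 to 2.02). Sntb1 was found in 92 cells, Galnt17 in 77 and Rgs6 in 76, so none of these rested on a few cells.

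Grin2a (chr16:9567898-9995560, minus strand, 428 kb) rested on far less. It had 34 UMIs in 12 of the 110 cells, and 1 cell of the ischemic injury library held 10 of them. Its levels were 65.2, 109 and 200 CPM by library, against 21.1, 25.4 and 20.0 CPM in the matched cells, a log2 ratio of 2.48 (1.83 to 3.23). In all 5 markers, exons made up under 5% of the span.

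Every cell of cluster 10 had a UMI of at least 1 of the 5 markers, and 82 cells (74.5%) had at least 3 of them. At least 1 marker was also found in 215 of 330 matched cells of cluster 1 (65.2%) and in 323 of 330 of cluster 2 (97.9%). In the matched cells, at least 3 were found in 55 of 330 cells of cluster 1 (16.7%) and in 175 of 330 cells of cluster 2 (53.0%). The markers were not particular to cluster 10 among mural cells, since clusters 0, 2, 3 and 8 had Cacna1c at 414, 648, 478 and 421 CPM over all their cells. To set cells side by side at equal depth, each was thinned to 500 UMIs, which left out 1 cell of cluster 10. Cacna1c then had a UMI in 56.9% (47.0 to 66.3) of cells in cluster 10, 11.1% in cluster 1 and 26.5% in cluster 2. In cluster 4, where the oligodendrocyte markers were highest, it was found in 1.52% of thinned cells, and in cluster 9, where the microglia markers were highest, in 0.459%. Without thinning these shares were 90.9%, 50.2%, 87.0%, 34.6% and 5.05%, at median depths of 2253, 3187, 4653, 25207 and 16952 UMIs. At equal depth the share of cluster 10 cells with a UMI was 47.7% for Sntb1, 34.9% for Rgs6 and 33.0% for Galnt17, against at most 20.2%, 18.1% and 17.0% in cluster 1 or 2 and at most 0.507% in clusters 4 and 9. The order was cluster 10, cluster 2, cluster 1 for each of these 4 genes. Grin2a was found in 4.59% (1.51 to 10.4) of thinned cells, an interval that reaches down to the 1.93% of cluster 2.

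**Figure D2:**
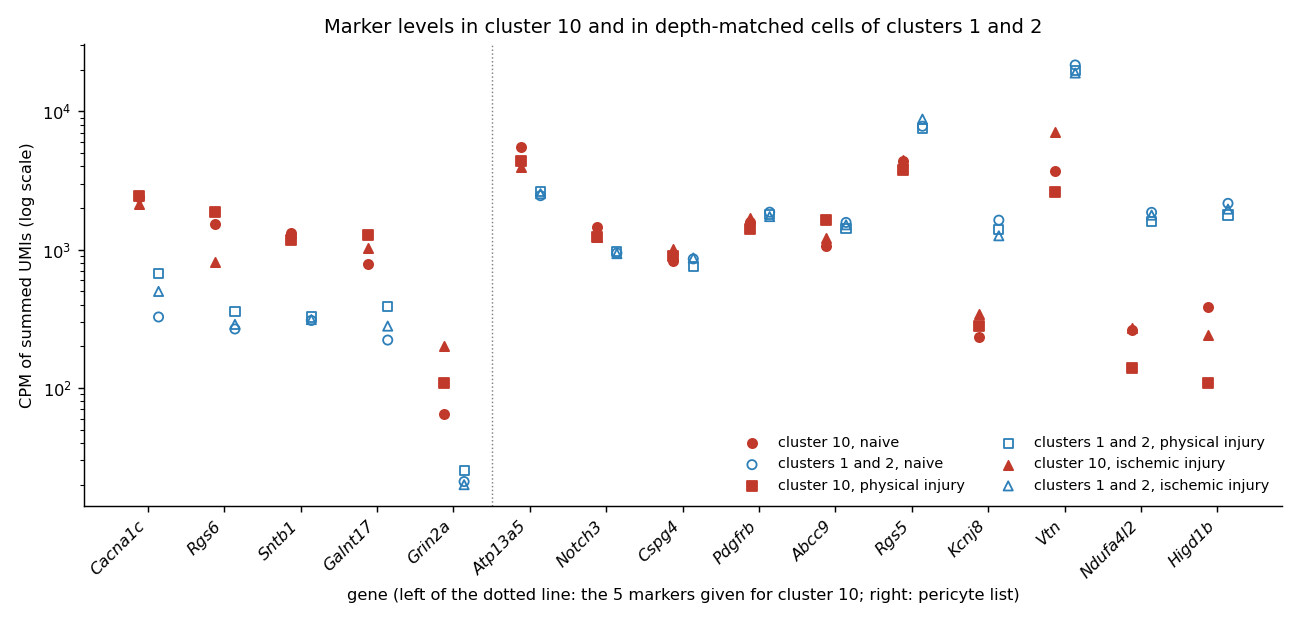
Level in CPM (log axis) of the 5 given markers and of 10 genes of the pericyte list, in cluster 10 (filled) and in the depth-matched cells of clusters 1 and 2 together (open), 1 point per library. Among others, the 5 markers and Atp13a5 lay above the matched cells in all 3 libraries, and Vtn, Kcnj8, Ndufa4l2 and Higd1b below them.

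All 11 genes of a pericyte list were detected. Against the matched cells 0 were at least 2-fold higher, 4 were at least 2-fold lower and 7 lay between, with a median log2 ratio of -0.58. Over the 4823 genes with at least 50 CPM in the higher group, 23.4% were at least 2-fold higher, 30.2% were at least 2-fold lower and the median was 0.04. The 4 lower genes of the list (Vtn, Kcnj8, Higd1b and Ndufa4l2) span 2.19 to 6.78 kb and the other 7, from Cspg4 to Atp13a5, 34.8 to 147 kb. Of all tested genes under 10 kb other than the mitochondrially encoded ones, 81.6% were at least 2-fold lower. Vtn (chr11:78499091-78502324, plus strand, 3.23 kb), which codes for a secreted matrix protein, was at 3709, 2608 and 7037 CPM in the naïve, physical injury and ischemic injury libraries, against 21577, 19737 and 18874 CPM in the matched cells, a log2 ratio of -2.10. Kcnj8 (chr6:142564837-142571614, minus strand, 6.78 kb), the pore of the potassium channel, was at 233, 279 and 341 CPM against 1631, 1392 and 1258 CPM, a log2 ratio of -2.33. Both were lower than the matched cells in every library, with no overlap. Higd1b, a small mitochondrial membrane protein of the hypoxia-induced family, and Ndufa4l2, a hypoxia-induced homologue of a respiratory chain subunit, both had log2 ratios of -2.90.

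The other 7 genes of the list lay within 2-fold of the matched cells. Abcc9 (chr6:142587862-142702315, minus strand, 114 kb), which codes for the partner of Kcnj8 in the same channel, was at 1062, 1645 and 1203 CPM against 1571, 1415 and 1510 CPM. Its log2 ratio was -0.27, and the groups overlapped. Pdgfrb was at 1591 CPM (log2 ratio -0.17) and Cspg4, the gene behind the Cre line, at 910 CPM. The log2 ratio of Cspg4, 0.12, was smaller than the shift of -0.15 that another scaling brings and turns below 0 with it. Rgs5, a regulator of G protein signalling abundant in pericytes, was at 4258 CPM (log2 ratio -0.93), and Notch3, the mural Notch receptor, at 1322 CPM (0.48). Atp13a5 (chr16:29231851-29378732, minus strand, 147 kb) was at 5507, 4330 and 3920 CPM against 2451, 2627 and 2533 CPM, a log2 ratio of 0.88, above the matched cells in every library. At equal depth 81.7% of cluster 10 cells had a UMI of Atp13a5, against 58.0% of cluster 1 and 71.7% of cluster 2. Vtn was found in 78.9%, against 99.5% and 99.8%, with 2.43% in cluster 4 and 5.50% in cluster 9 as the level in cells that should lack it.

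Relative to the cluster with the highest level, the pericyte genes averaged 58.8% in cluster 10, against 80.9%, 84.9% and 83.6% in clusters 0, 1 and 2, 54.3% in cluster 8 and 20.8% in cluster 3. The 10 genes that led cluster 10 by fold over all other cells (among them Grin2a, 9630014M24Rik, Gm30624, Rgs6, Gm20139, Sntb1, Cacna1c, 2610307P16Rik and Galnt17) include none of the pericyte list. Those other cells include clusters 0, 1, 2 and 8, so a gene shared with these could hardly lead. The absence therefore says nothing on the cell type. In the ischemic injury library its median depth was also under 33.3% of that of the library. It is called here by its number, and no cell type is read from the leading genes.

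In the separate clustering of the naïve data, which also took in another Cre line, the 44 naïve cells of cluster 10 did not form a cluster of their own. The numbers of that clustering are those of the deposited annotation, and no cell type is given to them here. They include a cluster 9, which the paper's numbering of its naïve clusters does not reach. They are therefore not to be read as the paper's cluster numbers. There, 37 of the 44 (84.1%, 69.9 to 93.4) lay in naïve cluster 2, another 5 in naïve cluster 5, and naïve clusters 8 and 9 had 1 each. Naïve cluster 2 held 586 NG2 cells and took up 497 of the 877 naïve cells of cluster 2 (56.7%), but only 47 of the 1086 naïve cells of cluster 1 (4.33%).

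Markers of other cell types were few in UMIs in cluster 10, though not always fewer than in the matched cells. Of the 8 endothelial genes, 4 were at 0 (Ly6c1, Pecam1, Cdh5 and Itm2a). Their sum was 357 CPM (326, 435 and 341 by library), against 244 CPM in the matched cells, and most of it was Flt1 at 302 CPM. The 7 OPC genes summed to 114 CPM (140, 0 and 160 by library), against 86.0 CPM in the matched cells, with Pdgfra at 0 and the most UMIs from Pcdh15 (40.5 CPM). The 6 oligodendrocyte genes summed to 357 CPM (233, 233 and 571 by library), against 247, 187 and 534 CPM in the matched cells, with Mag at 0. The sum was highest in the ischemic injury library of both groups. The 7 microglia genes summed to 40.5 CPM against 28.0 CPM, with C1qa and P2ry12 at 0. The 6 astrocyte genes summed to 99.5 CPM against 45.4 CPM, with 4 at 0, and Slc1a3 made up most of it at 92.1 CPM (log2 ratio 1.06). The 7 neuron genes summed to 11.1 CPM against 25.8 CPM with 6 at 0, the 5 fibroblast genes to 140 CPM against 206 CPM with 3 at 0, and the 4 erythroid genes to 3.68 CPM against 2.64 CPM with 3 at 0. The 7 smooth muscle genes summed to 1098 CPM (1156, 1180 and 982 by library), against 2401 CPM in the matched cells. Cnn1 was at 0, Mylk (myosin light chain kinase) gave the most UMIs (416 CPM), and Myl9 and Myh11 had log2 ratios of -2.47 and 1.08. The 3 mesenchymal-like pericyte genes summed to 250 CPM against 196 CPM, and the 5 radial glial precursor genes to 107 CPM against 275 CPM. A gene at 0 in the 110 cells may have been present at up to 11.1 CPM, the level of 3 counts. A mixed droplet of a pericyte and another cell was not called for any of the 110 cells, but the caller marked 16 of 10455 cells in all (0.153%) and so has not worked on these data. The part of other cells' RNA in the values of cluster 10 was not tested.

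Across all genes with at least 50 CPM in the higher group, 1130 of 4823 (23.4%) were at least 2-fold higher in cluster 10 than in the matched cells of both clusters together and 1457 (30.2%) at least 2-fold lower. Against cluster 1 alone the counts were 1486 higher (30%) and 1669 lower (33.7%) of 4955 genes, and against cluster 2 alone 865 higher (18.3%) and 1305 lower (27.6%) of 4734 genes. Of the 1130 higher genes, 942 (83.4%) were higher in each of the 6 comparisons of 1 library with 1 cluster, and 1396 of the 1457 lower genes (95.8%) were lower in each. Of all 4823 genes tested, 3101 (64.3%) had 1 sign in all 6. The higher and lower genes were chosen from these same cells pooled, so their agreement in sign is no separate support. The 1130 higher genes held 32.9% of the UMIs of cluster 10 and 11.5% of those of the matched cells, and the 1457 lower genes held 9.12% and 36.4%.

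The genes on either side differed in span, which the clustering did not use. The higher genes had a median span of 125 kb, of which exons were 6.99%, and 61.8% of them spanned over 100 kb. The lower genes had a median span of 9.15 kb, of which exons were 29.9%, and 0.622% of them spanned over 100 kb. All tested genes had a median span of 37.5 kb. By span, the median log2 ratio was -1.97 for the 933 genes under 10 kb, -0.93 for the 1169 from 10 to 30 kb, 0.45 for the 1624 from 30 to 100 kb, 1.13 for the 832 from 100 to 300 kb and 1.62 for the 225 over 300 kb. The 13 mitochondrially encoded genes, with a median span of 0.784 kb, are not in these classes. All 13 lay within 2-fold, with a median log2 ratio of 0.40. Of the genes over 300 kb, 87.6% were at least 2-fold higher and 0 were at least 2-fold lower. Of those under 10 kb, 1.18% were higher and 81.6% lower. The order held in each library: the shortest genes had medians of -2.10, -2.31 and -1.74 and the longest 1.81, 1.47 and 1.37 in the naïve, physical injury and ischemic injury libraries. Across the 4783 genes of these classes, which are not independent replicates, Spearman's rho between span and log2 ratio was 0.79. Without the ribosomal protein genes the median of the shortest genes was -1.87. A gene below the CPM minimum in the matched cells passed it through cluster 10 alone, so it could not be counted as lower. Likewise, a gene below it in cluster 10 could not be counted as higher. The classes were not restricted to genes that pass in both groups, so their counts, medians and rho are descriptions. The share of UMIs from genes over 100 kb, given above, used no such minimum.

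**Figure D3:**
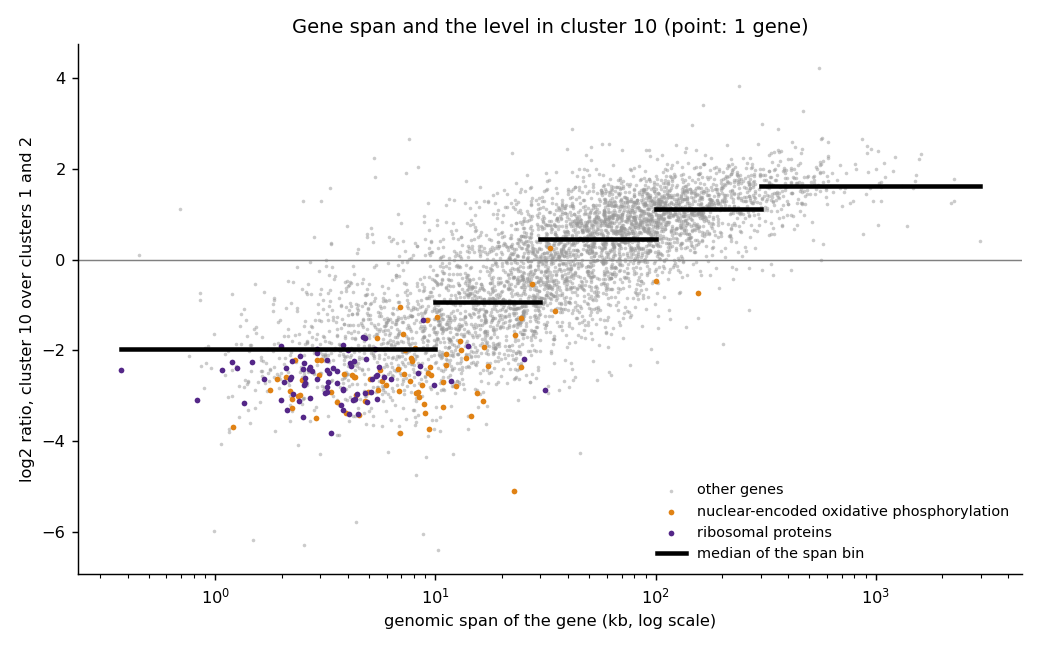
Log2 ratio of cluster 10 to the depth-matched cells of clusters 1 and 2 against the span of the gene (kb, log axis), 1 point per gene with at least 50 CPM in the higher group. Marks give the median of each span class without the mitochondrially encoded genes, from -1.97 under 10 kb to 1.62 over 300 kb. Coloured points are the ribosomal protein genes and the nuclear-encoded genes of oxidative phosphorylation.

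The genes with the largest ratios in both directions were taken among those with at least 200 CPM in the higher group and 1 sign in all 6 comparisons. They are part of the genes counted by span above, and most passed the 200 CPM through the group where they were high, so they are examples and add nothing to those counts. Among the 12 highest were Atxn1, Magi1, A330023F24Rik, Wwox, Lncpint, Sox5, Pde10a, Btbd9, Nr3c2, Ldlrad4 and Cacna1c, with log2 ratios from 2.61 to 2.29. Of these, A330023F24Rik spans 61.5 kb and Lncpint 138 kb, both noncoding, and the other genes named 335 to 954 kb. Sox5, an SRY-related transcription factor, was at 2106, 2235 and 1744 CPM by library against 295, 485 and 362 CPM in the matched cells. Its log2 ratio was 2.45 (2.29 to 2.62), and a UMI was found in 100 of 110 cells. Atxn1, the ataxin behind a spinocerebellar ataxia, was at 391, 248 and 291 CPM against 39.3, 57.7 and 60.0 CPM. Wwox, an oxidoreductase gene at a common fragile site, was at 727, 605 and 401 CPM against 81.4, 118 and 108 CPM. Wwox and Pde10a, a phosphodiesterase, were lowest in the ischemic injury library. For Btbd9, 1 cell held 19 of the 70 UMIs.

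The 12 lowest were Psma7, G0s2, Ndufb8, Ifitm2, Ndufa5, Atp5k, Drap1, Atraid, Atp5g3, Tomm7, Edf1 and Cox7a2, with log2 ratios from -4.24 to -3.42 and spans from 1.06 to 9.35 kb. Each had 4 to 11 UMIs in cluster 10. Among them, Ndufb8, Ndufa5, Atp5k, Atp5g3 and Cox7a2 belong to the respiratory chain or ATP synthase, and Tomm7 to the import channel of the outer mitochondrial membrane. Psma7, a proteasome subunit, was at 9.32, 15.5 and 20.0 CPM by library, against 256, 289 and 338 CPM in the matched cells. Cox7a2 was at 37.3, 15.5 and 60.1 CPM against 434, 383 and 489 CPM. Ifitm2, an interferon-induced membrane protein, was at 55.9, 31.0 and 30.1 CPM against 559, 505 and 632 CPM.

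Transcripts of the ribosome and of the nuclear part of the respiratory chain were lower as whole groups. Of 91 ribosomal protein genes, 79 passed the 50 CPM minimum and all 79 were at least 2-fold lower, beside 30.2% of all genes tested, with a median log2 ratio of -2.58. A gene that is low in cluster 10 passes this minimum through the matched cells alone, so the count is a description. The listed genes are also short, with a median span of 3.23 kb (7.33 kb for oxidative phosphorylation). Of all tested genes under 10 kb other than the mitochondrially encoded ones, 81.6% were at least 2-fold lower. The sum of the 91 was 5908, 3958 and 11889 CPM in the naïve, physical injury and ischemic injury libraries, against 41402, 42908 and 50145 CPM in the matched cells, and 7 of the 91 were at 0. Of 88 nuclear-encoded genes of oxidative phosphorylation, 79 passed, 75 were at least 2-fold lower and 4 lay between, with a median of -2.58. Their sum was 4734, 3228 and 4842 CPM against 24812, 22181 and 24875 CPM. Cox4i1, a subunit of cytochrome c oxidase, was at 93.2, 77.6 and 140 CPM against 737, 665 and 765 CPM.

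The 13 genes encoded by the mitochondrial genome went the other way by a smaller amount. All 13 lay within 2-fold, with a median log2 ratio of 0.40 and a range from 0.28 for mt-Co1 to 0.86 for mt-Nd6. Their sum was 36753, 46347 and 42204 CPM by library against 29592, 37258 and 30745 CPM, above the matched cells of the same library each time. The subunits of 1 respiratory chain thus stood on both sides: mt-Co1 was at 4623 CPM against 3640 in cluster 1 and 3942 in cluster 2, while Cox4i1 was at 107 CPM against 927 and 594.

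Of 8 listed noncoding RNAs that stay in the nucleus, 2 were at 0 and 6 passed the minimum. Of these, 4 were at least 2-fold higher and 2 lay between, beside 23.4% higher among all genes tested, with a median of 1.16. Malat1, which gave the most UMIs of the list, took up a median of 7.98% of a cell's UMIs in cluster 10 (6.34%, 8.03% and 9.66% by library), against 2.55% in the matched cells of cluster 1 and 6.0% in those of cluster 2 (6.13%, 6.48% and 5.77% by library). In the naïve library cluster 10 and cluster 2 lay close together, and the gap to cluster 2 was widest in the ischemic injury library. Its log2 ratio was 0.81 (0.79 to 0.83). Kcnq1ot1, the antisense transcript of an imprinted locus, had a log2 ratio of 1.78 and the maternally expressed Meg3 one of 1.16. Mir99ahg, a miRNA host transcript, was at 1072, 962 and 702 CPM against 288, 390 and 273 CPM (1.57). Neat1, the RNA of paraspeckles, was at 74.5, 15.5 and 130 CPM against 30.9, 46.2 and 34.6 CPM, higher in the naïve and ischemic injury libraries and lower in the physical injury library, on 22 UMIs. It passed the minimum through cluster 10 alone, so it could only be counted as higher or between. Kcnq1ot1 overlaps Kcnq1 on the other strand, and the counting is not stated to use strand.

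**Figure D4:**
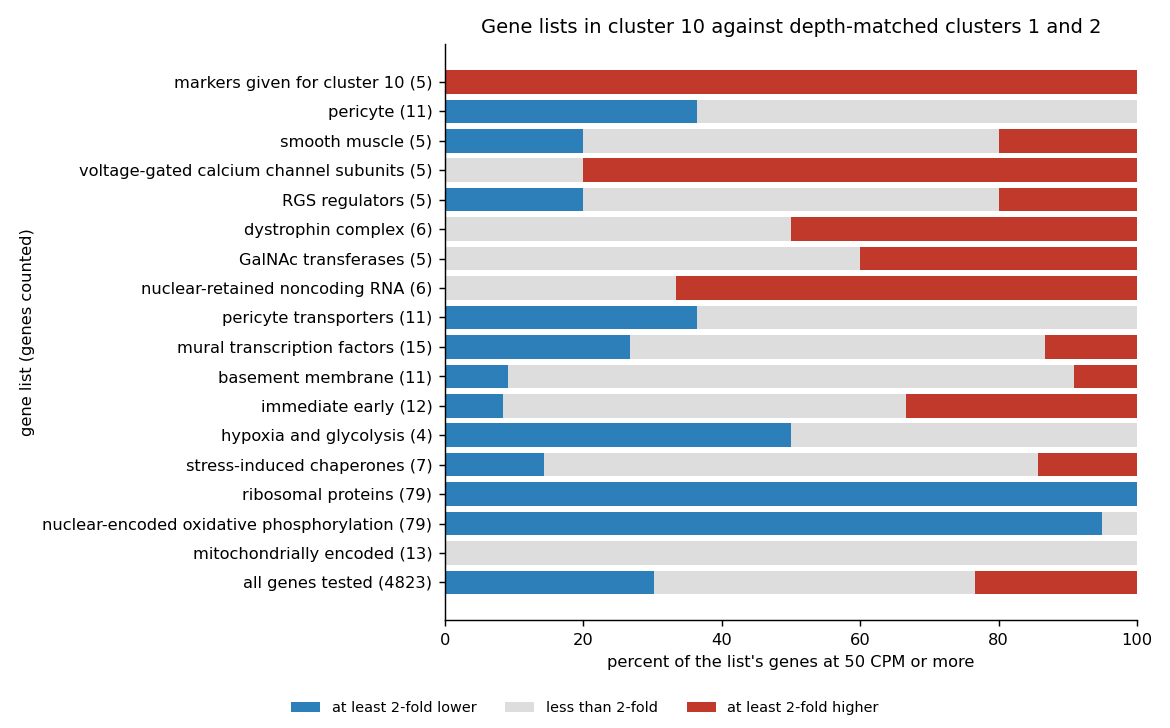
Percent of genes at least 2-fold higher, between and at least 2-fold lower in cluster 10 against the depth-matched cells of clusters 1 and 2, for each gene list with at least 4 genes over the 50 CPM minimum. All 79 ribosomal protein genes and 75 of 79 nuclear-encoded oxidative phosphorylation genes were lower, and all 13 mitochondrially encoded genes lay between. Of all genes tested 30.2% were lower, and of those under 10 kb other than the mitochondrially encoded ones 81.6%.

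The families of the 5 markers were looked at next. Their counts stand beside 23.4% of all genes tested that were at least 2-fold higher and 30.2% at least 2-fold lower, and they include the given markers themselves. Of 16 subunits of voltage-gated calcium channels, 6 were at 0 and 5 passed the minimum, of which 4 were at least 2-fold higher and 1 lay between. Besides Cacna1c, these were Cacnb2, a beta subunit, at 1128, 683 and 581 CPM against 205, 247 and 173 CPM (log2 ratio 2.02), Cacna2d1, an alpha2-delta subunit, at 503, 590 and 551 CPM against 157, 189 and 163 CPM (1.69), and Cacna1d, the pore of another L-type channel, at 88.4 CPM on 24 UMIs (1.09), which in the ischemic injury library was no higher than the matched cells. Cacna1h, the pore of a T-type channel, lay between (0.18). Cacna1d and Cacna1h passed the minimum through cluster 10 alone, so neither could have been counted as lower. The 16 genes had a median span of 204 kb, and of all tested genes from 100 to 300 kb 59.6% were at least 2-fold higher. Of 18 ionotropic glutamate receptor genes, 9 were at 0. Only Grin2a and Grik5, a kainate receptor subunit, passed the minimum, both through cluster 10 alone, so nothing is read from their direction.

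Of 18 RGS genes, 5 passed. Rgs6 was higher, Rgs4 and Rgs5 lay between at log2 ratios of -0.88 and -0.93, and Rgs10, which passed through the matched cells alone, had 1 UMI in cluster 10. In the dystrophin complex, which links the cytoskeleton to the basement membrane, 3 of 6 genes that passed were at least 2-fold higher. The given marker Sntb1 is among these 3, and of all genes tested 23.4% were at least 2-fold higher. The 16 listed genes of the complex had a median span of 141 kb. Of all tested genes from 100 to 300 kb, 59.6% were at least 2-fold higher. Dmd spans 2257 kb, and of all tested genes over 300 kb 87.6% were at least 2-fold higher. Dystrophin (Dmd) was at 2236, 2452 and 1875 CPM against 790, 1023 and 870 CPM (log2 ratio 1.30), and its homologue utrophin (Utrn) at 2376, 2996 and 2306 CPM against 828, 914 and 839 CPM (1.55). Dag1, the dystroglycan that binds laminin on the cell surface, was at 308, 217 and 100 CPM against 402, 342 and 313 CPM (-0.75). Dmd and Utrn were above and Dag1 below the matched cells in every library. Of 17 GalNAc transferase genes, 5 passed, with the given marker Galnt17 and Galnt18, which passed through cluster 10 alone, higher and 3 between.

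Of 16 mural transcription factors, 15 passed the minimum: 2 were at least 2-fold higher, 4 lower and 9 between, with a median of -0.23, beside 23.4% higher and 30.2% lower among all genes tested. Ebf1, a factor of mural and stromal cells, was at 5107, 5029 and 3609 CPM against 1508, 1618 and 1400 CPM (log2 ratio 1.61), and Nfib at 144 CPM on 39 UMIs (1.47). Foxs1, Foxf2, Foxc1 and Zic1 were lower, with log2 ratios of -1.20, -1.53, -1.47 and -1.12. Of 14 basement membrane genes, 11 passed. Lama2, a laminin chain, was at 1817, 2375 and 2346 CPM against 681, 785 and 822 CPM (1.49), and Sparc, a matrix glycoprotein, at 447, 233 and 591 CPM against 1526, 1309 and 1309 CPM (-1.63), while the other 9 lay between. Of 14 pericyte transporter genes, 11 passed, with 4 lower and 7 between, a share near that of all genes tested. The folate carrier Slc19a1 was lower (-1.48), and the proline transporter Slc6a20a lay between (0.21).

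Among stress-related genes, 12 of 13 immediate early genes passed, 4 of them at least 2-fold higher (Fosb, Klf4, Atf3 and Nr4a1, log2 ratios of 1.91, 1.82, 1.62 and 1.54) and 1 lower (Ier3, -2.34), beside 23.4% higher and 30.2% lower among all genes tested. Klf4 and Atf3 passed the minimum through cluster 10 alone and Ier3 through the matched cells alone. Fos and Jun lay between, at -0.16 and -0.13. Of 10 genes of hypoxia and glycolysis, 4 passed, with the glycolytic enzymes Aldoa (-2.47) and Ldha (-1.62) lower and 2 between. Of 7 stress-induced chaperones, 1 was higher, 1 lower and 5 between, with a median of 0.00. The median span was 4.2 kb for the immediate early genes and 4.5 kb for the chaperones. Of all tested genes under 10 kb other than the mitochondrially encoded ones, 1.18% were higher and 81.6% lower, with a median of -1.97. The medians of both lists, -0.14 and 0.00, were above that of this span class. What lies behind this difference was not tested.

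The share of cells in cluster 10 was similar in the 3 libraries when all sorted cells were counted. It was 1.02% (0.743 to 1.37) in the naïve, 0.897% (0.570 to 1.34) in the physical injury and 1.20% (0.869 to 1.61) in the ischemic injury library, and the ischemic injury library differed from the naïve by 0.177 percentage points (-0.302 to 0.675). Among the cells of clusters 0, 1, 2, 8 and 10 alone, the shares were 1.27% (0.924 to 1.70), 1.90% (1.21 to 2.84) and 3.14% (2.28 to 4.21). On that second count the ischemic injury library was 1.87 points (0.912 to 3.00) above the naïve and the physical injury library 0.631 points (-0.185 to 1.63). Among clusters 1, 2 and 10 alone, the shares were 2.19% (1.60 to 2.93), 3.07% (1.96 to 4.58) and 6.88% (5.02 to 9.16), and the ischemic injury library was 4.69 points (2.69 to 7.04) above the naïve. The size of the difference thus depends on the denominator. The sort and the other cell types in a library set the first denominator, and with 1 pooled library per condition none of these differences can be told apart from the spread between animals.

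Within cluster 10, each injured library was set against the naïve one for genes with at least 500 CPM in the higher library. The genes named were picked for their ratios in these same values, and some passed the minimum through 1 library alone. They are therefore examples, and no count of changed genes is given. Because they were picked as extreme in cluster 10, a smaller ratio in the matched cells is a description and no separate support. The make-up of these cells also differed between libraries. Genes over 100 kb gave 40.5%, 40.2% and 33.6% of UMIs in the naïve, physical injury and ischemic injury libraries. The median percent.ribo was 0.409%, 0.416% and 1.12%. Whether this shift is behind any change given below was not tested. The ischemic injury library was higher in Junb, a subunit of the AP-1 transcription factor, at 952 CPM (771 to 1164) against 270 CPM in the naïve and 217 CPM in the physical injury library. The log2 ratio to naïve was 1.81 (1.20 to 2.47), while in the matched cells of clusters 1 and 2 it was -0.36. Fosb, another AP-1 subunit, was at 559, 140 and 1253 CPM in the naïve, physical injury and ischemic injury libraries, lowest after physical injury (log2 ratio -1.99, in the matched cells -1.39). Fos was at 895, 730 and 2035 CPM and Jun at 1966, 854 and 2015 CPM. The summed immediate early genes were at 5861, 3042 and 9002 CPM, against 8712, 3619 and 5787 CPM in the matched cells, so the physical injury library was the lowest of both groups.

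Col4a1, a chain of basement membrane collagen, was at 587 (451 to 751), 838 and 1393 (1171 to 1645) CPM in the naïve, physical injury and ischemic injury libraries, a log2 ratio of 1.25 for ischemic injury against -0.12 in the matched cells. In the physical injury library 1 cell held 26 of its 54 UMIs. Its partner chain Col4a2 was at 335, 404 and 642 CPM. Meg3 was at 410, 652 and 952 CPM (212, 409 and 314 CPM in the matched cells), a log2 ratio of 1.21 for ischemic injury against 0.57 in the matched cells. The co-chaperone Dnaja1 was at 224, 109 and 541 CPM (268, 245 and 308 CPM in the matched cells). Of the other genes highest after ischemic injury, Tmx4 (a thioredoxin-related membrane protein) had 25 of its 51 UMIs in 1 cell and Mgp (matrix Gla protein) 21 of 66. Those lowest after ischemic injury were Aspn, Serinc3, Phip, Atp2a2, Dgkb and Ano4, with log2 ratios from -2.10 to -1.09. Dgkb, a diacylglycerol kinase, was at 1137, 900 and 521 CPM and Ano4, of the anoctamin family, at 1072, 745 and 501 CPM. Dgkb was found in 39 of the 110 cells. In the same order of libraries, 1 cell held 30 of its 122, 25 of its 58 and 17 of its 52 UMIs.

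Aspn, which codes for the matrix proteoglycan asporin, was at 606, 140 and 140 CPM in cluster 10, lower in both injured libraries, and at 713, 632 and 694 CPM in the matched cells. Of its 65 naïve UMIs, 1 cell held 21. After physical injury the highest genes were Ank2, Pakap, Plekhg3, Crim1, Camk1d and Psd3, with log2 ratios from 1.23 to 0.84. A single cell held 29 of 72 UMIs of Ank2, 20 of 41 of Pakap and 53 of 72 of Crim1, so these rest largely on 1 cell each. Camk1d, a calcium/calmodulin-dependent kinase, was at 1183, 2204 and 1243 CPM, and at 321, 1085 and 930 CPM in the matched cells, where the log2 ratio was 1.75 against 0.90 in cluster 10. Among the lowest after physical injury were Aspn, Fosb, Ywhaz, Ndst3 and Hspa1a, on 9 to 22 UMIs in that library. The 23 cells of that library limit every value given for it.

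**Figure D5:**
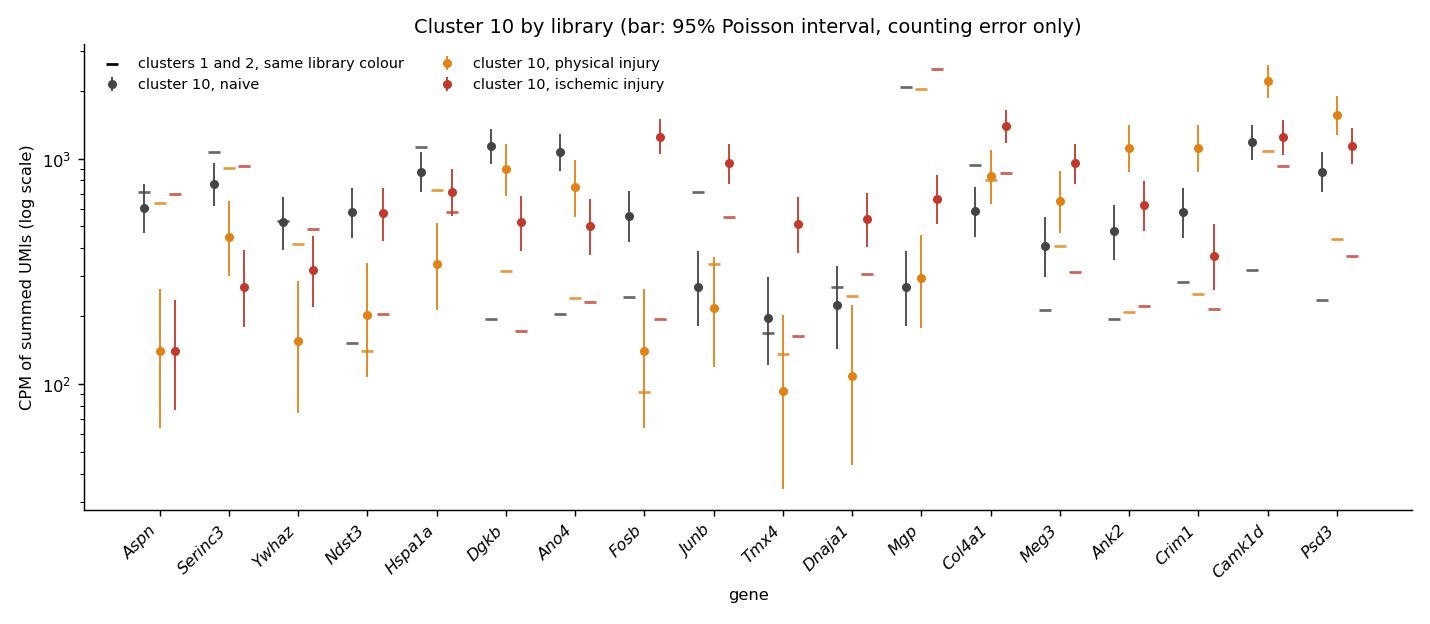
Level in CPM (log axis) of 18 genes in cluster 10 by library, with exact 95% Poisson intervals, and in the depth-matched cells of clusters 1 and 2 (dashes). The genes were picked for their ratios in cluster 10. Junb and Col4a1 were highest in the ischemic injury library of cluster 10 (952 and 1393 CPM) while the dashes were not, and Aspn was highest in its naïve library (606 CPM).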

How the data were processed

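Live tdT+/DAPI- cells were sorted and made into 10x Genomics 3' libraries, 1 per condition. The authors aligned the reads to mm10 with Cell Ranger (7.0.0 per the labels, while the methods give a range of versions and not which library had which) and filtered and clustered the cells in Seurat. For 22833 genes and 10455 cells, the deposited table gives raw UMI counts without scaling. In all 10455 cells the counts sum to the deposited totals. The percent.mito and percent.ribo columns are percent values that the authors computed before they removed some transcripts from the table. No cell was filtered out.

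Levels are CPM of counts summed over cells, with Poisson intervals (exact). Shares have Clopper-Pearson intervals, and ratios exact conditional binomial intervals, with a pseudocount of 1 CPM. Matching was by UMIs within a library, 3 cells per cell and cluster, without replacement. Genes needed 50 CPM in the higher group, and a 2-fold ratio is a description, not a test. Named genes were the 5 markers, list members, and the 12 highest and 12 lowest ratios with at least 200 CPM and 1 sign in all 6 comparisons, without mitochondrial and ribosomal protein genes. Across conditions they were the 6 highest and 6 lowest with at least 500 CPM. Some genes that meet these rules are not reported here. The members and the lists were chosen with earlier results of these data known. The pericyte, transporter and other mural lists draw on genes the study names, so they are not independent of it.

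Gene spans come from GENCODE M21 (GRCm38), matched by symbol for 22306 genes (97.7%) with 99.5% of the UMIs of cluster 10. The annotation the authors used may differ. Doublets are not mentioned in the sources used here, and Scrublet marked 1, 12 and 3 cells. Calls of 2-fold differences were tested on simulated data. Alternatives were other scalings, minima, spans, matching and left-out libraries. TMM factors came from edgeR 4.0.16 in R 4.3.3. All else was run in Python 3.11.15 with scanpy 1.11.5, pandas 2.3.3, matplotlib 3.10.9, scipy 1.17.1 and numpy 2.4.6.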

Additional observations from a re-analysis of the deposited data

How the results depend on the processing

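Of 418 gene values under alternatives (38 genes), 370 stayed within the counting interval, 48 moved and 1 changed sign (Cspg4, from 0.12 to -0.03 with TMM factors). TMM factors shifted every log2 ratio by -0.15. With them the summed 5 markers had a log2 ratio of 1.98 in place of 2.13. The ratio was 2.01 against all cells of clusters 1 and 2, 2.26 when only matched cells within 25% in UMIs were used (chosen after seeing the data, 321 cells of cluster 1 and 171 of cluster 2), and 1.97 to 2.21 without 1 library. The 1130 higher and 1457 lower genes became 404 and 436 with a 200 CPM minimum, 2937 and 4911 with none, 884 and 1643 with TMM, and 1101 to 1262 and 1435 to 1503 without 1 library. The share of cluster 10 cells moved to 1.90% (physical injury) and 3.14% (ischemic injury) over pericyte clusters alone. The difference in median percent.ribo, -5.03 points from cluster 1, was -4.34 against all its cells and -4.81 with 1 matched cell, and the -2.61 points from cluster 2 became -2.41 with 1 matched cell. With the 91 ribosomal protein genes, an alternative also chosen after seeing the data, they were -5.10 and -2.63. The difference in the share from long genes was 24.6 points from cluster 1, and 28.2 with a 50 kb limit, 16.0 with 200 kb, 27.6 without the markers and Malat1, 25.2 without mitochondrial and ribosomal protein genes, 24.0 against all cells and 22.4 to 27.0 without 1 library. From cluster 2 it was 18.1, and 20.0, 12.2, 20.4, 18.6, 17.9 and 16.0 to 20.5 in the same order. Cacna1c was found in 81.0% of cells thinned to 1000 UMIs, in place of 56.9%. The causes of these moves were not tested beyond each alternative's own construction. No paired analysis between conditions was possible because each condition had 1 library. Clusters were compared within libraries, with no test, since expression had formed them. With 110 cells and 23 in 1 library, genes near 50 CPM rest on few UMIs, and the matched cells of cluster 2 stayed deeper than cluster 10.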

Other observations

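The denominators of the deposited percent.mito and percent.ribo were larger than the summed counts in most cells of cluster 10 and of the matched cells, since some transcripts were removed from the table after the percent values were made. The removed share can be worked out per cell, and it was whole in UMIs (within 0.01) in 10412 of 10412 cells with a mitochondrial UMI. Its median in cluster 10 was 1.30% (1.35%, 0.890% and 1.5% in the naïve, physical injury and ischemic injury libraries), with a highest value of 14.8%. In the matched cells of cluster 1 it was 0.344%, 1.61% and 2.69%, and in those of cluster 2 0.439%, 1.19% and 1.96%. In the naïve library cluster 10 thus had the highest removed share of the 3, and in both injured libraries its median was below that of cluster 1.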
